A study of Mus musculus with 48 samples.

Results

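Fatty acid oxidation and ketone body metabolism were followed through 39 genes, named by symbol, in 5 mouse tissues: liver, kidney and hypothalamus from each sex, testis, and ovary. Every probe set whose only gene symbol in the platform annotation was one of the 39 was taken. This gave 58 of 22626 probe sets, for 35 of the 39 genes. No probe set carried Cpt1b, Cpt1c, Acsl1 or Acsl3 as its only symbol, and these 4 are not analysed here. RNA was hybridised to Affymetrix arrays. The 8 groups were testis, ovary, and liver, kidney and hypothalamus of males and of females, with 3 RNA samples apiece. Both arrays run for a sample were averaged, so n = 3 per group. Per the labels the RNA was purchased and each sample was prepared from 10 pooled animals, and the tissues are described as healthy. The sources used here give neither strain nor age, and name no allele or treatment for any group. Whether the samples within a group were separate pools is not stated, so p-values may reflect technical spread alone.

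Fatty acids are first activated to acyl-CoA by acyl-CoA synthetases. The carnitine shuttle then carries long acyl chains into mitochondria, where a repeated cycle of dehydrogenation, hydration, a second dehydrogenation and thiolysis releases acetyl-CoA, and peroxisomes shorten very long chains by a related route. Liver turns part of its acetyl-CoA into ketone bodies and exports them. Tissues such as brain, heart and kidney take ketone bodies up and return them to acetyl-CoA with a CoA transferase that hepatocytes are known to lack.

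Intensities are given on the deposited linear scale, as the mean of the 2 arrays of an RNA sample, and means carry the SD over 3 RNA samples. Where a gene had several probe sets, the one with the highest mean log2 value over the 24 samples stands for it, and intensities of different probe sets are not comparable. Differences are log2 differences of intensity plus a pseudocount of 48.1, with the SE of the fit, and a difference was called at a limma adjusted p under 0.05 over all tested probe sets. The pseudocount makes a log2 difference understate the change of a dim gene, so no ratio of intensities is given for one. A probe set is called dim in a sample where it lay below the 40th percentile of the arrays, which was 110.5 to 184.6 in intensity, and it was tested in a comparison where at least 3 samples lay above it. All 35 genes reached that level in some 3 samples, and 26 did so in all 24.

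Summed markers of each labelled tissue were highest in that tissue, although 1 of the single markers, Pomc of the hypothalamus list, was brighter in testis. The summed intensity of 6 hepatocyte genes was 91305 to 94777 in liver of males, 83700.1 to 97585 in liver of females and at most 15742 in every other sample, and 6 male germ cell genes summed to 76529 to 102253 in testis and to at most 539 elsewhere. The 5 adipocyte genes measured summed to 11649 to 18899 in ovary against 806 to 2402 in testis, 3097 to 5244 in female kidney and 630.2 to 1131 in female liver, so ovarian values below come with that marker signal, whose part in them was not tested. Genes of the exocrine pancreas summed to 7209 to 34654 in livers of males and 12666 to 27254 in those of females, and their part was not tested either. Per the labels the hypothalamus samples were total RNA and the other tissues polyA-selected, while another field gives total RNA throughout, so tissue and kind of RNA cannot be told apart in differences from hypothalamus. In bulk RNA, fewer cells of a type and less RNA per cell cannot be told apart.

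Most genes of the list shared an order of tissues. In 26 of 35 genes (74.3%) mean intensity in both liver and kidney was above that in hypothalamus, testis and ovary, which held for 11.5% of all 18052 probe sets above the filter. In 24 of the 35 genes ovary stood next, above both hypothalamus and testis. Liver was the highest of the 5 tissues for 21 genes (60%) and kidney for 9 (25.7%), against 15.3% and 12.5% of those probe sets. Hypothalamus was the lowest for 16 genes and testis for 11, and the share of all probe sets was not computed for the lowest tissue. The genes without liver and kidney both on top were Acsl6, Acsl4, Crat, Oxct1, Oxct2a, Acox3, Acot2, Acaa1a and Hadha.

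**Figure D1:**
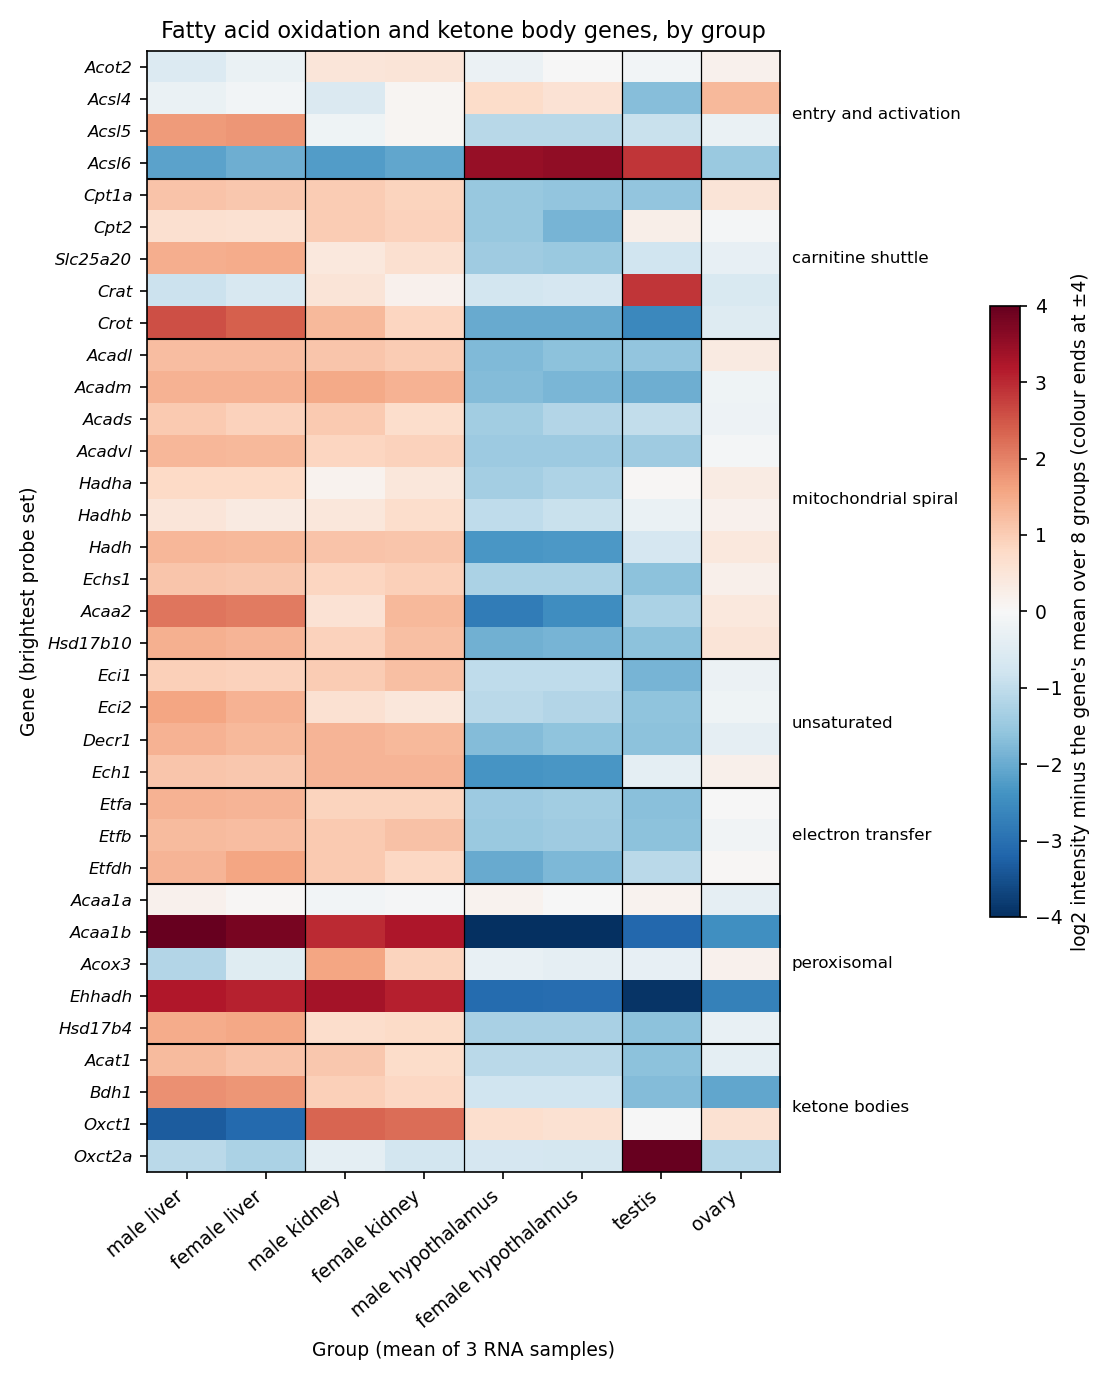
Colour gives log2 intensity of each gene's brightest probe set in each group (mean of 3 RNA samples) minus the gene's own mean over the 8 groups, in rows ordered by role. Most rows are red in liver and kidney and blue in hypothalamus and testis, and Acsl6, Crat and Oxct2a stand out in testis.

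Compared tissue by tissue, 27 of 33 tested genes were higher and 3 lower in liver than in hypothalamus, with a median log2 difference over the tested genes of 2.67 against -0.25 over all tested probe sets. Of the probe sets in that comparison, 43 of 55 probe sets were higher and 8 lower, against 31.6% and 50.3% of all tested probe sets. In kidney against hypothalamus 31 of 34 tested genes were higher and 2 lower. By probe set, 49 of 56 probe sets were higher and 4 lower, against 32.4% and 46.3% of all tested probe sets. Fewer genes were called between liver and kidney. In liver against kidney 14 of 33 tested genes were higher and 5 lower, and by probe set 23 of 55 probe sets were higher and 9 lower, against 23.2% and 32.6% of all tested probe sets.

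Testis was lower than ovary for most called genes, and both gonads were lower than the mean of the other tissues of their sex for most called genes. In testis against ovary 3 of 33 tested genes were higher and 23 lower. By probe set, 4 of 51 probe sets were higher and 35 lower, against 24.9% and 45.7% of all tested probe sets. Against the mean of the male liver, kidney and hypothalamus groups, 3 of 35 tested genes were higher and 25 lower in testis, and by probe set 4 of 57 probe sets were higher and 42 lower, against 28.6% and 47.4% of all tested probe sets. In ovary against the mean of the 3 female tissues, 5 of 34 tested genes were higher and 16 lower, and by probe set 8 of 56 probe sets were higher and 21 lower, against 36.5% and 23% of all tested probe sets. The comparisons of liver and of testis share samples with others of the set, so they are not independent of each other. A gene that passed the filter through the tissue where it is bright had to differ, so these counts describe the tested genes and are no test of the list.

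Another scaling of the arrays shifted the whole distribution. Quantile normalization and median centring moved the median of all tested probe sets by 0.25 and 0.39 in liver against hypothalamus, by 0.19 and 0.31 in kidney against hypothalamus, by 0.22 and 0.37 in testis against ovary, by 0.13 and 0.18 in testis against the male tissues and by -0.12 and -0.18 in ovary against the female tissues. Of all calls, 38.6% were higher in liver than in hypothalamus, against 49.2% and 55.3% under these scalings, and the same share was 41.2% against 50.2% and 57% for kidney over hypothalamus. For testis over ovary it was 35.3% against 45% and 50.9%, and for ovary over the female tissues 61.3% against 51.2% and 44.1%. In ovary against the female tissues, 13 higher and 20 lower probe sets were called after quantile normalization and 3 and 28 after median centring. In testis against ovary the calls were 7 higher and 36 lower, and 8 higher and 30 lower.

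**Figure D2:**
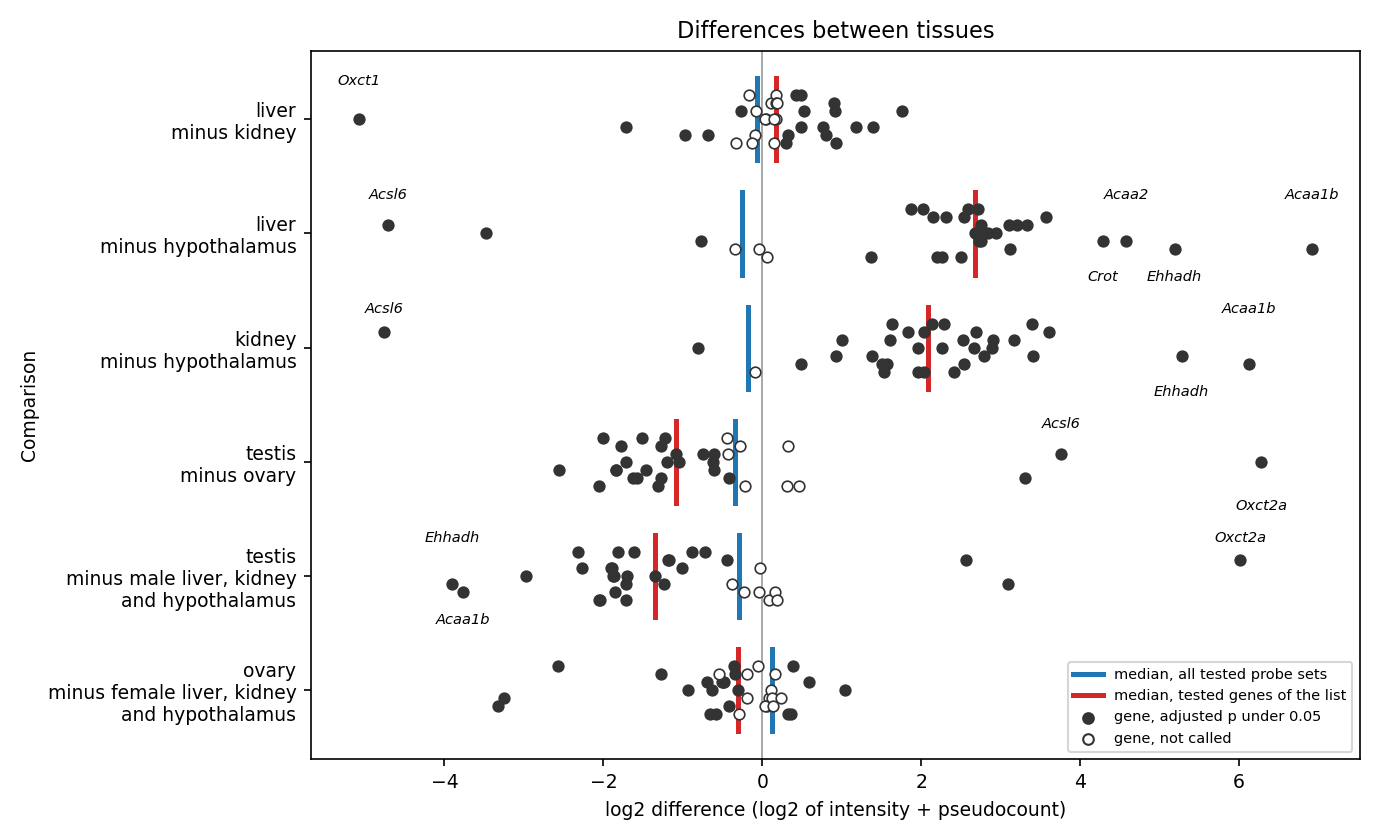
Each point is the log2 difference of a tested gene (x axis) in 1 of 6 tissue comparisons (rows), filled where the adjusted p was under 0.05. Red bars are medians over the tested genes of the list and blue bars medians over all tested probe sets. Genes farthest from 0 are named.

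Acyl-CoA synthetases, which activate long-chain fatty acids, differed in the tissue where they were brightest. Acsl5, a synthetase known from liver and intestine, had intensities of 4627, 5091 and 5503 in male liver and 5265, 5074 and 5712 in female liver, against 1178, 1417 and 1605 in male kidney and 1575, 1714 and 1638 in female kidney. Liver samples were all above kidney samples, with a log2 difference of 1.75 ± 0.10 (SE; adjusted p = 5.16e-09). Hypothalamus was lower again, at 724 ± 19.7 in males and 733 ± 67.7 in females (SD, n = 3 each), and liver minus hypothalamus was 2.76 ± 0.08 (SE; adjusted p = 8.91e-13). In testis Acsl5 had 957, 993 and 615, against 1356, 1355 and 1217 in ovary, and testis minus ovary was -0.62 ± 0.20 (SE; adjusted p = 0.0189). That call was lost with ovary sample 1 or 2 left out (adjusted p = 0.0584 and 0.0624).

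Acsl6, the synthetase known for activating docosahexaenoic acid in brain, was bright in hypothalamus and testis only. It had 2447, 2714 and 2785 in male hypothalamus, 2544, 2815 and 2805 in female hypothalamus and 1515, 1983 and 1666 in testis, against 70.7, 103 and 79.2 in ovary. Every liver, kidney and ovary sample was dim, at no more than 103, and none overlapped with hypothalamus or testis. Testis minus ovary was 3.76 ± 0.17 (SE; adjusted p = 1.2e-07), and liver minus hypothalamus -4.71 ± 0.11 (SE; adjusted p = 1.35e-13). Every hypothalamus sample was above every testis sample, a difference that was not tested on its own. Testis minus the mean of the male tissues was 2.56 ± 0.14 (SE; adjusted p = 9.02e-10).

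Acsl4, a synthetase that prefers arachidonic acid, was lowest in testis and highest in ovary. Testis had 111, 119 and 132, against 817, 1118 and 941 in ovary, with a log2 difference of -2.56 ± 0.17 (SE; adjusted p = 1.04e-06). Neither group overlapped with any other of the 8. Hypothalamus was second, and liver and kidney had log2 differences from it of -0.77 and -0.81 (adjusted p = 3.76e-05 and 8.02e-06). All 3 Acsl4 probe sets were called lower in testis than in ovary. Acot2, a mitochondrial thioesterase that releases the fatty acid from its CoA, had group means from 103 to 211, and was above the filter in all 3 samples of each sex in kidney alone. It had 127, 106 and 75.5 in male and 114, 133 and 122 in female liver, against 228, 212 and 181 in male and 230.1, 224 and 178 in female kidney. It was lower in liver than in kidney without overlap, with a log2 difference of -0.69 (adjusted p = 0.000121).

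The 3 annotated start sites of Acsl6 differ in base composition, shown by their promoter windows of 250 bases before to 50 after a start (RefSeq, GRCm38.p6). They hold 1, 5 and 36 CG steps, against a median of 7 over all 32851 windows. Probe set intensities cannot be assigned to one of them here. The extended element TCAAGGTCA, bound by estrogen-related receptors, was searched on both strands of 33 windows of 30 genes and was found in 1, the Acsl6 window with 5 CG steps, at bases -167 to -159 from the start, against 0.423% of all windows.

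Among the carnitine enzymes, Cpt1a, the liver-type palmitoyltransferase that commits acyl chains to the shuttle, was high in liver, kidney and ovary. It had 5797, 3057 and 5220.3 in male liver and 3954, 5669 and 3633 in female liver, 5008, 3898 and 3545 in male kidney and 3277, 4626 and 3623 in female kidney. These 4 groups overlapped, and liver minus kidney was 0.17 ± 0.17 (SE; adjusted p = 0.438). Cpt1a fell in testis, which had 595, 536 and 1030.2, against 2726, 2867 and 3210.1 in ovary, a log2 difference of -2.00 ± 0.23 (SE; adjusted p = 4.29e-05). Hypothalamus, at 707 ± 42.9 in males and 693 ± 65.9 in females, overlapped with testis. In ovary Cpt1a averaged 2934 against 2985 over the female tissues on the linear scale, while the log2 difference was positive at 0.36 ± 0.14 (SE; adjusted p = 0.0443). That call was lost when any of 10 single samples was left out, with adjusted p up to 0.178. The 2 other Cpt1a probe sets were not called in this comparison, with differences down to -0.17.

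Crat and Crot, which move short and medium acyl groups to carnitine in mitochondria and peroxisomes, differed in opposite directions between testis and ovary. Crat, the acetyltransferase that also buffers acetyl-CoA, had 3188, 3073 and 5095 in testis, against 329, 356 and 307 in ovary and at most 806 in any sample of the other tissues. Testis stood apart from all groups, with testis minus ovary 3.30 ± 0.21 (SE; adjusted p = 9.61e-07) and testis minus the male tissues 3.09 ± 0.15 (SE; adjusted p = 2.59e-10). Testis sample 3 was the highest of the testis samples for Crat, as for 18 of the 35 genes. Other groups had such a sample too, as sample 2 was highest for 26 genes in female liver and 25 in female kidney. The share over all probe sets was not computed. Kidney was next to testis for Crat, and liver minus kidney was -0.97 ± 0.13 (SE; adjusted p = 2.4e-05). This rests on the brighter of 2 Crat probe sets, as the second was not called in that comparison (-0.44). In kidney minus hypothalamus the brighter one was called higher (0.93) and the second was not called (0.05). Quantile normalization and median centring called the second higher there (0.38 and 0.36). The second Crat probe set was also higher in testis than in ovary, at 503 against 142 and a log2 difference of 1.54 ± 0.18 (SE; adjusted p = 5.17e-05).

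Crot, the peroxisomal octanoyltransferase, had 7356, 6071 and 7572 in male liver and 6013, 6356 and 6209 in female liver, against 3640.4, 2321 and 2839.6 in male kidney and 3060.1, 2502 and 1287 in female kidney. The liver samples were all above the kidney samples, and liver minus kidney was 1.40 ± 0.18 (SE; adjusted p = 2.35e-05). Testis was lowest at 210.4, 168 and 211, against 942, 808 and 739 in ovary, a difference of -1.85 ± 0.16 (SE; adjusted p = 7.25e-06). Slc25a20, the carnitine and acylcarnitine exchanger of the inner membrane, was higher in liver than in kidney at 2432 against 1317 (log2 difference 0.92 ± 0.24 SE, adjusted p = 0.00547). Its samples overlapped, with 1731 in female liver sample 1 and 2404 in female kidney sample 2. Cpt2, which returns the acyl group to CoA, had 1036, 914 and 1960.3 in testis, against 997, 912 and 1050.1 in ovary. It was not called between them (log2 difference 0.31 ± 0.26 SE, adjusted p = 0.304), with testis sample 3 far above the other two, and was called higher in testis after median centring (0.68, adjusted p = 0.0498). It was higher in liver and in kidney than in hypothalamus by 2.20 and 2.53.

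**Figure D3:**
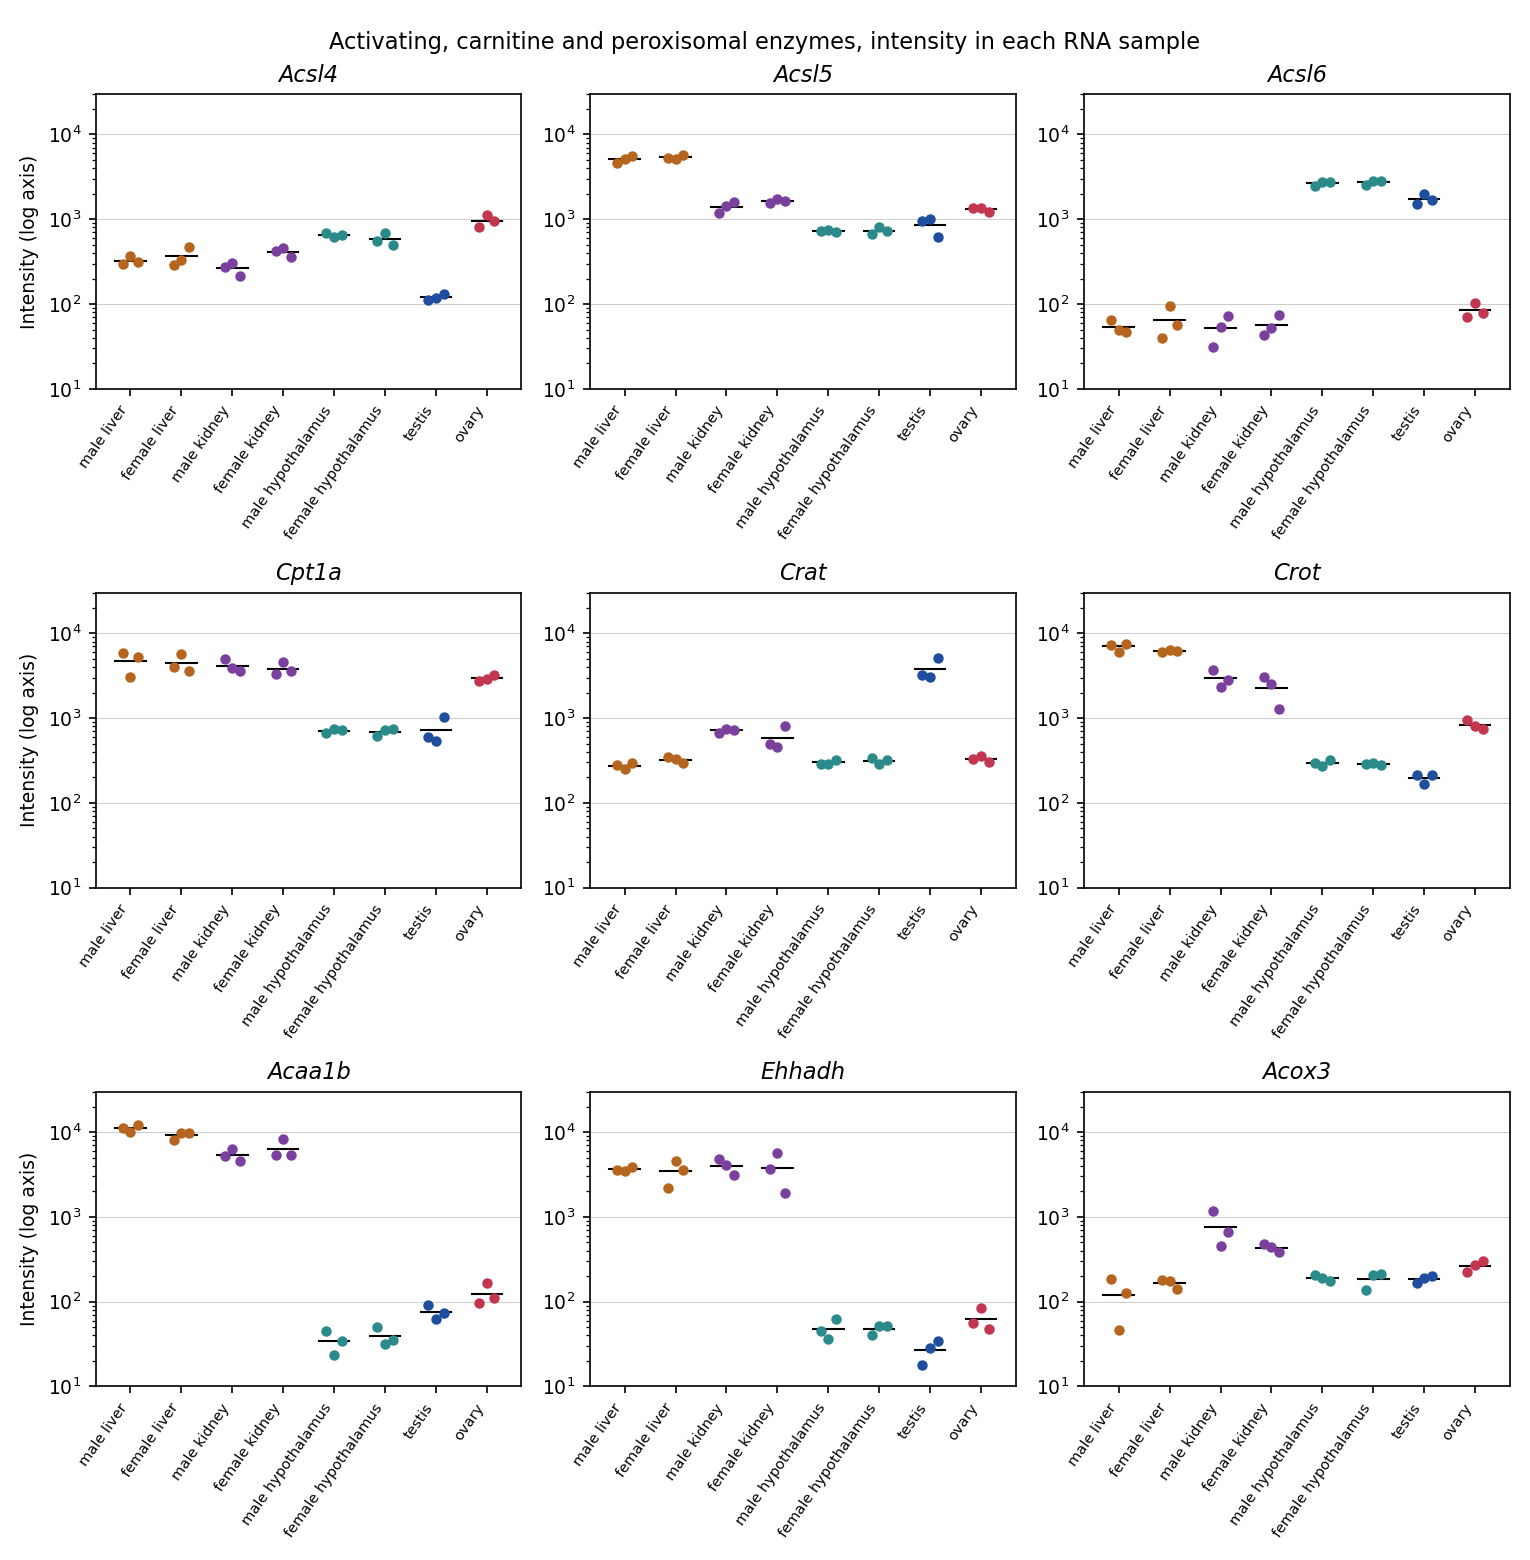
Points are intensities of single RNA samples (log axis) and short lines are means of 3, for 9 enzymes in the 8 groups. Acsl6 is bright in hypothalamus and testis, Crat in testis, Acsl4 in ovary, and Acaa1b and Ehhadh in liver and kidney, where the other groups are dim.

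The 10 enzymes of the mitochondrial cycle were higher in liver and in kidney than in hypothalamus without exception. Against hypothalamus, 10 of 10 were higher in liver, with log2 differences from 1.37 to 4.58, and 10 of 10 in kidney, from 1.51 to 3.41. Of all tested probe sets, 31.6% and 32.4% were higher in these comparisons. In testis against ovary 8 of 10 were lower, where 45.7% of all tested probe sets were, and median centring ended the call of Acads among them (-0.37, adjusted p = 0.0772). In liver against kidney 4 were higher and none lower, where 23.2% and 32.6% of all tested probe sets were. After quantile normalization the call of Acadvl in liver against kidney was lost, and Acadm, Hadhb and Hadh were called lower in liver (-0.43, -0.33 and -0.32). A second Hadhb probe set was called higher in liver than in kidney without that normalization (0.38), so the Hadhb probe sets did not share a direction. The acyl-CoA dehydrogenases take the first step for very long, long, medium and short chains (Acadvl, Acadl, Acadm and Acads). Their brightest probe sets were all higher in liver and in kidney than in hypothalamus and lower in testis than in ovary.

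Acadm, the medium-chain dehydrogenase, had 8784, 8080.1 and 8861 in male liver, 6961, 10299 and 8946 in female liver, 11050.4, 8887 and 8386 in male kidney and 8635, 9625 and 8018 in female kidney. Hypothalamus had 954, 1058 and 947 in males and 969, 1014 and 827 in females. Testis had 929, 878 and 784, against 2824, 2732 and 3311 in ovary. Liver and kidney overlapped with each other and lay above ovary, which lay above hypothalamus and testis. Liver minus hypothalamus was 3.10 ± 0.10 (SE; adjusted p = 3.54e-12), testis minus ovary -1.71 ± 0.16 (SE; adjusted p = 9.2e-06) and liver minus kidney -0.07 ± 0.12 (SE; adjusted p = 0.616). Acadl, the long-chain dehydrogenase, had 546, 532 and 679.8 in testis, against 1748, 2608 and 2359 in ovary, a log2 difference of -1.84 ± 0.19 (SE; adjusted p = 2e-05).

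Acaa2, the thiolase that closes the cycle, differed most between liver and hypothalamus among the 10. It had 7563, 10387 and 11553 in male liver and 6454, 11800.3 and 10601 in female liver, against 323, 300.1 and 329 in male hypothalamus and 426, 332 and 412 in female hypothalamus, and liver minus hypothalamus was 4.58 ± 0.15 (SE; adjusted p = 3.89e-12). It was also higher in liver than in kidney (log2 difference 1.17 ± 0.25 SE, adjusted p = 0.00159), although the sample ranges overlapped. Hadh, the short-chain 3-hydroxyacyl-CoA dehydrogenase, had 3619, 3549 and 4295 in testis, against 7318, 8601 and 8502 in ovary, a log2 difference of -1.08 ± 0.16 (SE; adjusted p = 0.000187). Hsd17b10, which acts on branched chains and is encoded on the X chromosome, had the largest fall in testis of the cycle, with 401, 363 and 573 in testis against 2483, 1572 and 1947 in ovary and a difference of -2.05 ± 0.22 (SE; adjusted p = 2.69e-05). Echs1, the short-chain enoyl-CoA hydratase, had 721, 672 and 1164 in testis, against 2836, 3100.1 and 2918 in ovary (log2 difference -1.78 ± 0.21 SE, adjusted p = 4.82e-05).

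Hadha and Hadhb, the 2 subunits of the trifunctional protein that carries out the last steps on long chains, were the 2 members of the cycle not called between testis and ovary. Hadha had 1767, 1814 and 3052 in testis, against 2581, 2603 and 2628 in ovary, and Hadhb had 2737, 2073 and 4962 against 3950.1, 4289.6 and 4185. Testis sample 3 was the highest value for Hadha and Hadhb alike, above every ovary sample, while the other two testis samples were below them. The differences were -0.28 ± 0.22 (SE; adjusted p = 0.276) and -0.44 ± 0.28 (SE; adjusted p = 0.183), and after quantile normalization both were called lower in testis, at -0.54 and -0.80.

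These 2 genes start 273 bases apart and run in opposite directions, so their promoter windows share 228 bases. The window of Hadhb is shown because most of it also lies in the window of its partner, in GRCm38.p6 at chr5:30155003-30155302, plus strand, with the shared bases in capitals (RefSeq).
Hadha and Hadhb: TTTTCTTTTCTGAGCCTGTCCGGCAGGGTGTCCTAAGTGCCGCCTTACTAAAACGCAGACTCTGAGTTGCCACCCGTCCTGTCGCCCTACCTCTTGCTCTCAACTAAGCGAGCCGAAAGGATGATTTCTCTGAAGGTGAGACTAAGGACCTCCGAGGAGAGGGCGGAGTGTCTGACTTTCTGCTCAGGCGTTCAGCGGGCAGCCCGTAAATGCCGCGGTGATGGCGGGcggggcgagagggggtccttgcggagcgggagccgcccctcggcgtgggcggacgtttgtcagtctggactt
The Hadhb window holds 24 CG steps and the Hadha window 20. Mean Hadha intensity was 3558 in male liver and 811 in male hypothalamus and mean Hadhb intensity was 5140.0 in male liver and 1793 in male hypothalamus.

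Enzymes for unsaturated chains, which need their double bonds moved or reduced before the cycle can go on, were higher in liver and in kidney than in hypothalamus in 4 of 4 cases each, and lower in testis than in ovary in 4 of 4, against the shares of all tested probe sets given for the cycle. Median centring ended the call of Ech1 between testis and ovary (-0.23, adjusted p = 0.205). Eci1, a mitochondrial enoyl-CoA isomerase, had 402, 297 and 371 in testis against 889.7, 1132 and 1294 in ovary (log2 difference -1.51 ± 0.19 SE, adjusted p = 6.38e-05). Eci2, an isomerase found in peroxisomes and mitochondria, was higher in liver than in kidney, with 3492, 2822 and 2938 in male and 2269, 3799 and 2412 in female liver, against 1842, 1703 and 1251 in male and 1385, 1917 and 1112 in female kidney (log2 difference 0.93 ± 0.17 SE, adjusted p = 0.000365). Ech1, a dienoyl-CoA isomerase, had 6292, 5743 and 5540.5 in male liver and 5819, 6347 and 5000.3 in female liver, against 8093, 6714 and 6389 in male kidney and 6876, 7323 and 6673 in female kidney. It was lower in liver by a small margin (log2 difference -0.27 ± 0.10 SE, adjusted p = 0.0291), a call lost without male liver sample 2 or 3, female liver sample 3, male kidney sample 1 or female kidney sample 2 (adjusted p = 0.0522 to 0.0772). Decr1, the dienoyl-CoA reductase, had 567 ± 63.5 in testis, against 1399.8 ± 491 in ovary (log2 difference -1.19 ± 0.23 SE, adjusted p = 0.00125).

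Electron transfer flavoprotein (Etfa and Etfb) and its dehydrogenase (Etfdh) pass the electrons of the first step to the respiratory chain. All 3 genes were lower in testis than in ovary, where 45.7% of all tested probe sets were. All 3 were higher in liver and in kidney than in hypothalamus, where 31.6% and 32.4% of all tested probe sets were. Etfa had 868, 896 and 584 in testis, against 2284, 2704 and 2217 in ovary, with no overlap and a difference of -1.58 ± 0.19 (SE; adjusted p = 6.26e-05). Etfb had 1288 ± 60.4 in testis, against 3641 ± 128 in ovary (log2 difference -1.46 ± 0.14 SE, adjusted p = 1.34e-05). Etfdh was higher in liver than in hypothalamus at 3415 against 324 (log2 difference 3.21 ± 0.10 SE, adjusted p = 2.13e-12). Etfa and Etfdh were also higher in liver than in kidney, by 0.49 and 0.52 (adjusted p = 0.00699 and 0.00869), and the call of Etfa was lost after quantile normalization (0.25, adjusted p = 0.15). Etfb was not called between them (log2 difference 0.14 ± 0.11 SE, adjusted p = 0.29), but changed sign and was called lower in liver after quantile normalization (-0.22, adjusted p = 0.0475). The palindromic element of NRF1 was found in the window of Etfdh alone among the 33, at bases -128 to -119, against 0.971% of all windows.

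Acaa1b and Ehhadh had the largest log2 differences of the tested genes between liver and hypothalamus. Acaa1b, a peroxisomal thiolase of mouse, had 11104, 10006 and 12052 in male liver, 8050.4, 9807 and 9818 in female liver, 5291, 6323 and 4538 in male kidney and 5347, 8379 and 5405 in female kidney. Hypothalamus had 45.0, 23.7 and 34.1 in males and 50.8, 31.4 and 35.7 in females, testis 92.6, 63.2 and 73.0 and ovary 97.0, 165 and 112. Liver and kidney thus lay far above groups that were dim in all but 1 ovary sample. Liver minus hypothalamus was 6.92 ± 0.10 (SE; adjusted p = 1.65e-15), kidney minus hypothalamus 6.12 ± 0.13 (SE; adjusted p = 7.82e-14) and liver minus kidney 0.80 ± 0.13 (SE; adjusted p = 0.000235), the last with overlapping samples. Ehhadh, the peroxisomal bifunctional enzyme, had 3623, 3441 and 3866 in male liver, 2189, 4558 and 3598 in female liver, 4758, 4145 and 3105 in male kidney and 3685, 5720.2 and 1915 in female kidney, and at most 84.4 elsewhere. Liver and kidney overlapped for Ehhadh (log2 difference -0.09 ± 0.24 SE, adjusted p = 0.774), and kidney minus hypothalamus was 5.28 ± 0.21 (SE; adjusted p = 3.02e-11).

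Hsd17b4, the other bifunctional enzyme, was present in every tissue, with 5553, 3822 and 5072 in male and 4615, 5521 and 4937 in female liver, against 3188, 2764 and 2458 in male and 3042, 3285 and 2489 in female kidney (log2 difference 0.76 ± 0.12 SE, adjusted p = 0.000132), and 553 ± 108 in testis against 1396 ± 80.3 in ovary (log2 difference -1.28 ± 0.17 SE, adjusted p = 0.000114). Acox3, an acyl-CoA oxidase for branched chains, had its highest values in kidney. It had 187, 46.8 and 128 in male liver and 182, 176 and 142 in female liver, against 1159, 449.5 and 671 in male kidney and 481, 438 and 387 in female kidney, without overlap (log2 difference -1.72 ± 0.23 SE, adjusted p = 3.22e-05). The brightest probe set of Acaa1a, a near relative of Acaa1b, had samples from 403 to 971 and was not called in any comparison. Under quantile normalization and median centring it was called higher in testis than in ovary (0.70 and 0.84, adjusted p = 0.0129 and 0.00786) and higher in liver than in hypothalamus (0.28 and 0.44), and under median centring lower in ovary than in the female tissues (-0.47). The second Acaa1a probe set was dimmer but higher in liver than in hypothalamus, at 231 against 83.4 (log2 difference 1.07 ± 0.11 SE, adjusted p = 9.44e-07). Both carry the suffix of probe sets that may read related transcripts, so Acaa1a is reported as uncertain.

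The promoter window of Acaa1b is shown because this gene had the largest liver minus hypothalamus difference and the fewest CG steps of any gene with 1 window, 4 against a median of 16 over the 33 windows of the list. Over all windows the median was 7, and 38.0% held 4 or fewer. That of Acadl, which is expressed in every tissue, is set beside it with 34, the most of any gene with 1 window. The 2 are extremes. Acadvl, above the filter in all 24 samples, held 9, and Ehhadh, dim outside liver and kidney, held 14. Whether CG steps go with the number of tissues was not tested. Capitals mark CG steps. Both windows shown are from RefSeq on GRCm38.p6, Acaa1b at chr9:119157044-119157343, minus strand, and Acadl at chr1:66863260-66863559, minus strand.
Acaa1b: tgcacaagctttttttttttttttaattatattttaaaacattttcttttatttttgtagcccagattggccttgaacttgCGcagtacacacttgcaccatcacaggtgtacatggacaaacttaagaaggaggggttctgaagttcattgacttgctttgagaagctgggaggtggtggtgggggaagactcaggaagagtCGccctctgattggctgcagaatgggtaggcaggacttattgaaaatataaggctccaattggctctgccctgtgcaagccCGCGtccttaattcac
Acadl: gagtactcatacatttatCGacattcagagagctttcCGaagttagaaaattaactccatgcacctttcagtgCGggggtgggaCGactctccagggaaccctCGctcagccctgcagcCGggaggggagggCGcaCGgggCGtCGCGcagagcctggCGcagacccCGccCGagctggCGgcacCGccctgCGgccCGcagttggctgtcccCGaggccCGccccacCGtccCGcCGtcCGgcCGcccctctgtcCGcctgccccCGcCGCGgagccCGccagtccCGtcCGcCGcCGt
The element bound by PPARA with RXR, a direct repeat of AGGTCA with any 1 base between the copies, was found on neither strand of any of the 33 windows, against 0.0396% of all windows, nor was a looser form with any base at the fourth position of each copy (0.381%). The windows cover only the bases next to a start.

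Oxct1 had the largest log2 difference of the tested genes between liver and kidney. Oxct1, the CoA transferase that lets tissues use acetoacetate, had 69.0, 256 and 156 in male liver and 77.3, 195 and 289.9 in female liver, against 6910.4, 7021 and 7374 in male kidney and 6917, 6625 and 6417 in female kidney. Hypothalamus had 2472, 2167 and 2211 in males and 2213, 2235 and 2087 in females. Every liver sample was below every other sample of the study. Liver minus kidney was -5.08 ± 0.25 (SE; adjusted p = 1.25e-09), liver minus hypothalamus -3.48 ± 0.24 (SE; adjusted p = 1.36e-08) and kidney minus hypothalamus 1.60 ± 0.07 (SE; adjusted p = 1.32e-10). All 4 Oxct1 probe sets were lower in liver than in kidney, with differences from -6.00 to -2.22, and than in hypothalamus, from -3.76 to -2.31. In kidney minus hypothalamus 3 of the 4 were called higher and 1 was not called (-0.09).

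Within liver, Oxct1 was lowest in sample 1 of each sex. The same samples had the lowest summed intensity of immune cell markers, 5773 in the male and 7587 in the female one, where the remaining liver samples had 25708 to 35754, and the part of these cells was not tested. Without the liver samples numbered 1, liver minus kidney was -4.69 and liver minus hypothalamus -3.09 (adjusted p = 1.98e-10 and 3.19e-10).

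Bdh1, which interconverts acetoacetate and 3-hydroxybutyrate, was highest in liver. It had 6800.0, 6939.8 and 6331 in male liver and 5701, 8598 and 5293 in female liver, against 4729, 3555 and 2819 in male kidney and 3393, 3667 and 2879 in female kidney, without overlap (log2 difference 0.91 ± 0.15 SE, adjusted p = 0.000184). Hypothalamus averaged 1081 and kidney minus hypothalamus was 1.64 ± 0.12 (SE; adjusted p = 1.94e-08). The gonads were lowest, at 559.9 ± 16.1 in testis against 442 ± 73.0 in ovary. They did not overlap, but testis minus ovary was not called (log2 difference 0.32 ± 0.16 SE, adjusted p = 0.102), while quantile normalization and median centring called it higher in testis (0.62 and 0.69, adjusted p = 0.00717 and 0.00419). Bdh1 was lower in ovary than in the female tissues (log2 difference -2.57 ± 0.15 SE, adjusted p = 5.21e-09).

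Acat1, the thiolase that splits or makes acetoacetyl-CoA, had 10138, 9912 and 8979 in male and 8404, 9964 and 7942 in female liver, against 9545, 8122 and 7612 in male and 7277, 6713 and 5929 in female kidney. Liver minus kidney was 0.30 ± 0.10 (SE; adjusted p = 0.0225), but the sign changed after quantile normalization (-0.04, adjusted p = 0.818), and the 2 other Acat1 probe sets were not called. One of these, at 1047 in liver against 1668 in kidney, was called lower in liver (-0.54) once samples of the same number were paired (adjusted p = 0.0148 against 0.0826). The order of liver and kidney is therefore not settled for Acat1. Testis had 1439, 1052 and 1350.5, against 2766, 3111 and 3211 in ovary (log2 difference -1.22 ± 0.17 SE, adjusted p = 0.000139).

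Oxct2a, a CoA transferase known from male germ cells, was bright in testis alone. It had 8491, 8403 and 7302 in testis, against 56.7, 62.4 and 54.2 in ovary, and was dim in every sample outside testis, at no more than 115. Testis minus ovary was 6.28 ± 0.15 (SE; adjusted p = 5.53e-09) and testis minus the male tissues 6.01 ± 0.12 (SE; adjusted p = 6.76e-14), the largest differences of the list in these comparisons. Oxct1 in testis had 1569.8, 1814 and 976, against 2179, 2132 and 2181 in ovary, without overlap (log2 difference -0.61 ± 0.22 SE, adjusted p = 0.0311). That call was lost without any 1 of the 3 ovary samples (adjusted p = 0.0728 to 0.0803). The Oxct1 probe sets differed here: one fell to 174 in testis against 1195 in ovary (log2 difference -2.48 ± 0.18 SE, adjusted p = 2.18e-06), and the other two were not called, with differences of -0.23 and 0.33. The second of these was called higher in testis under both other scalings (0.69 and 0.70). In ovary Oxct1 was called higher than the mean log2 value of the female tissues (log2 difference 0.58 ± 0.21 SE, adjusted p = 0.0279), a mean that includes the low values of liver. On the linear scale ovary averaged 2164 against 3006, and this call too was lost without any 1 ovary sample.

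The promoter windows of the CoA transferase pair are shown because the 2 genes differed in tissue, with Oxct2a bright in testis alone and Oxct1 bright in every tissue but liver. They are from RefSeq on GRCm38.p6, Oxct2a at chr4:123323630-123323929, minus strand, and Oxct1 at chr15:4026178-4026477, plus strand, with CG steps in capitals.
Oxct2a: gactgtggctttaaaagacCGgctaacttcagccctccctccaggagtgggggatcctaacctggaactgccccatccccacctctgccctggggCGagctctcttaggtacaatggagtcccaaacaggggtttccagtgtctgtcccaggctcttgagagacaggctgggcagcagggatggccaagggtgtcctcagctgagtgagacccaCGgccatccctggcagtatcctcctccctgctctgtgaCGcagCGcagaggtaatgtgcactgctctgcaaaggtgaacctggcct
Oxct1: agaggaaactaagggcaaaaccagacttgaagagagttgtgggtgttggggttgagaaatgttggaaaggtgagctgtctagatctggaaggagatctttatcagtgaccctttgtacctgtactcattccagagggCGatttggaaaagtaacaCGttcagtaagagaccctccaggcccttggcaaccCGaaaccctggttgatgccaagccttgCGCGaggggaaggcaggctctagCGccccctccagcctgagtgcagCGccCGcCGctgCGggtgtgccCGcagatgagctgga
The Oxct2a window holds 5 CG steps and that of Oxct1 11, and 43.6% and 60.4% of all windows hold as many or fewer. The cAMP response element TGACGTCA was found in none of the 33 windows, against 1.79% of all.

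**Figure D4:**
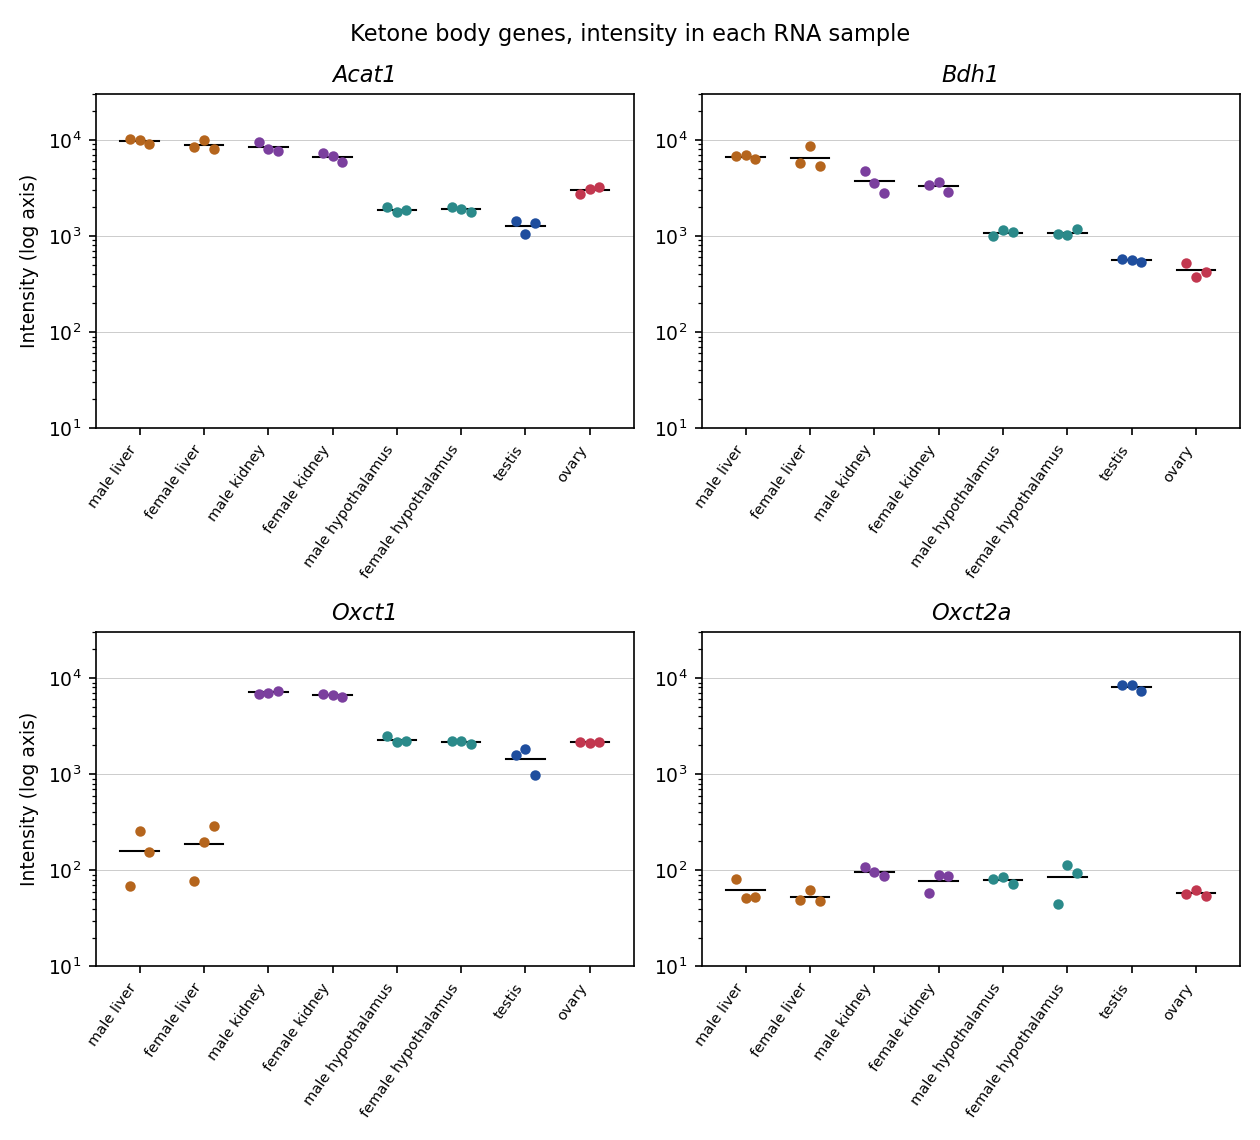
Points are intensities of single RNA samples (log axis) of 4 ketone body genes, and short lines are means of 3. Liver is highest for Bdh1 and lowest for Oxct1, and Oxct2a is at 7302 or more in the 3 testis samples and at 115 or less in every other sample.

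The comparison of the sexes asks which transcripts differ between males and females of 1 tissue, the subject of the series title. No member probe set was called in liver (0 of 50), kidney (0 of 54) or hypothalamus (0 of 45) with limma. The background was also small, with 0.0507%, 0.232% and 0.0509% of all tested probe sets called. At an unadjusted p under 0.05, 0 member probe sets passed in liver, 3 in kidney and 2 in hypothalamus, against 1.96%, 4.86% and 2.27% of all tested. Differences over the tested genes ran from -0.45 to 0.26 in liver, from -0.71 to 0.65 in kidney and from -0.25 to 0.40 in hypothalamus. A p that misses the threshold does not show that the sexes were alike. The difference between the sexes was itself compared between tissues, and 0 of 56 member probe sets passed for liver minus kidney, liver minus hypothalamus or kidney minus hypothalamus, where 0.237%, 0.0178% and 0.208% of all tested probe sets did.

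The lowest unadjusted p belonged to Acsl4 in kidney. Male kidney had 276, 308 and 215, against 418, 456 and 355 in female kidney, without overlap, and the difference was -0.54 ± 0.17 (SE; adjusted p = 0.692). A second Acsl4 probe set was lower in males without overlap as well, at 246 against 352 (log2 difference -0.46 ± 0.16 SE, adjusted p = 0.784). Hsd17b10 had 2828, 2333 and 2597 in male kidney, against 3314, 2867 and 3289 in female kidney, and was not called (log2 difference -0.28 ± 0.15 SE, adjusted p = 1). In all, 5 member probe sets were lower and 1 was higher in male kidney without overlap, against 5.36% and 4.2% of all tested probe sets.

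Among the comparisons of the sexes, Acaa2 was the one gene whose call depended on the pairing of samples. Male and female kidney samples that carry the same number varied together, with correlations of their deviations of 0.591, 0.426 and 0.627. Acaa2 had 1884, 5086 and 3579.9 in male kidney, against 3508, 7232 and 6113 in female kidney, so the groups overlapped while each male sample was below the female sample of its number. The difference was -0.71 ± 0.38 (SE; adjusted p = 1) without pairing and had an adjusted p of 0.0474 with the number as a block. A second Acaa2 probe set also passed with the block alone, with 1363 in male against 2186 in female kidney and a log2 difference of -0.66, at an adjusted p of 0.0432 with the block and 0.973 without. The third was not called, at 2175 in males against 2534 in females. In hypothalamus Acaa2 had 323, 300.1 and 329 in males, against 426, 332 and 412 in females, and was not called (log2 difference -0.25 ± 0.11 SE, adjusted p = 1).

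In liver, Acaa1b had 11104, 10006 and 12052 in males, and all of them lay above the 8050.4, 9807 and 9818 of females. Crat had 281, 252 and 294 in male liver, against 349, 327 and 293 in female liver, which overlapped narrowly on the linear scale and not as mean log2 values. Neither was called, with differences of 0.26 ± 0.14 (SE; adjusted p = 1) and -0.20 ± 0.13 (SE; adjusted p = 1). On mean log2 values, 1 member probe set was higher and 1 lower in male liver without overlap, against 2.96% and 3.1% of all tested probe sets.

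**Figure D5:**
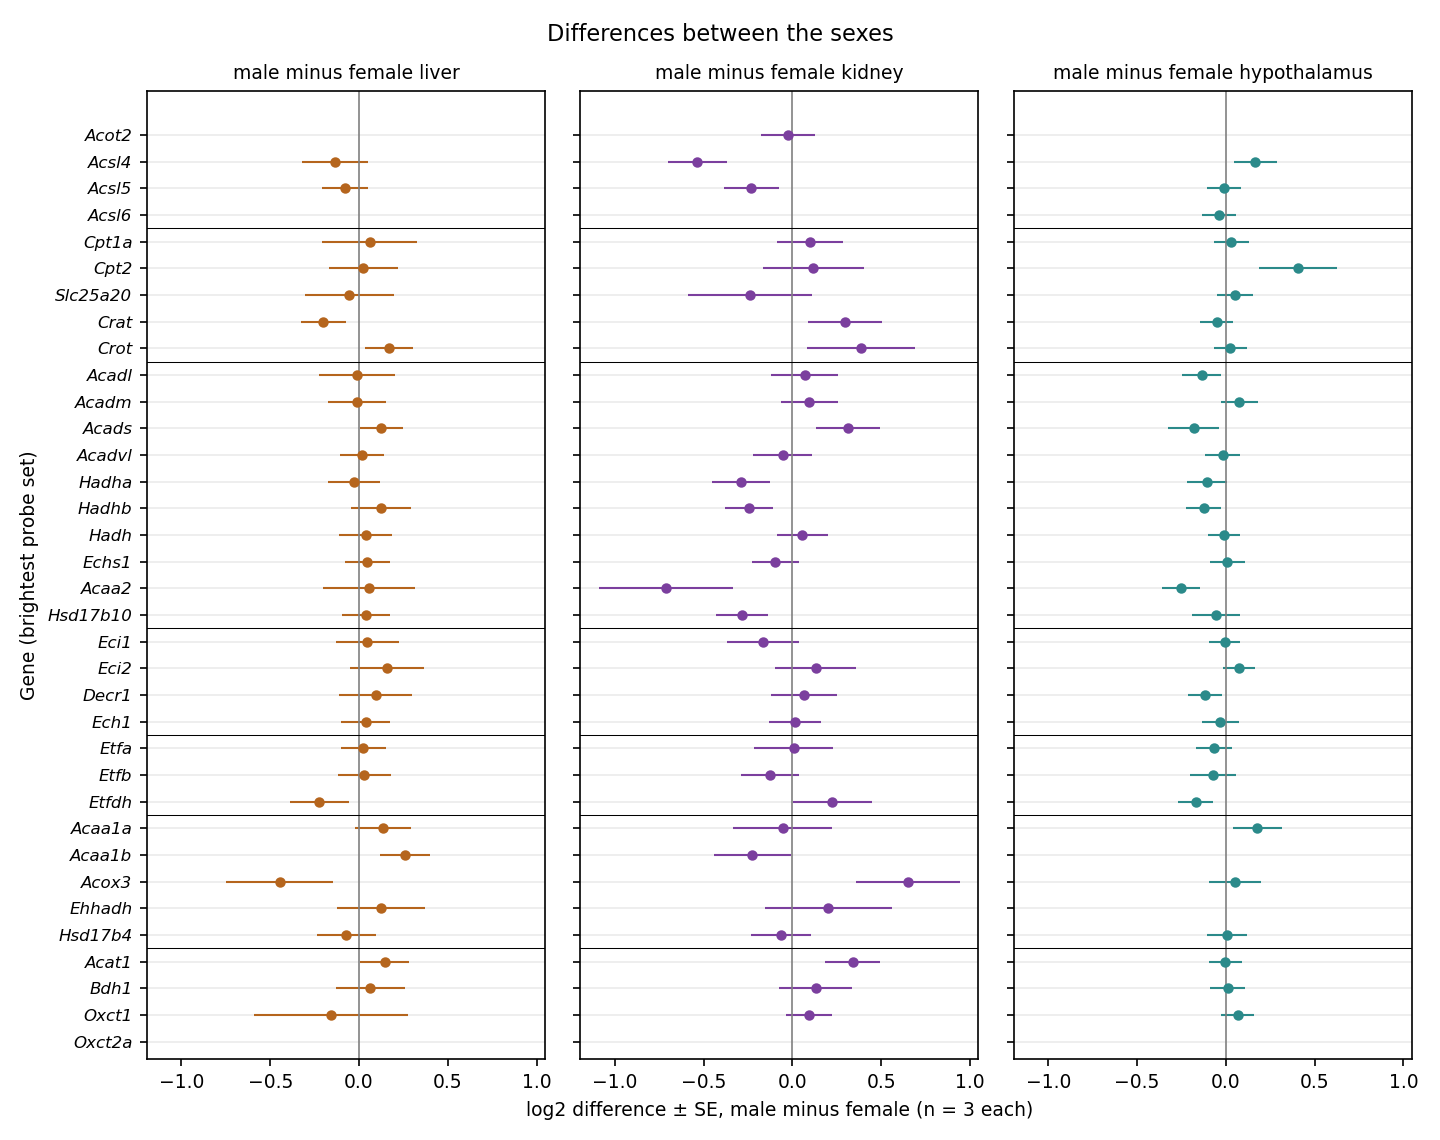
Points are log2 differences, male minus female, of each tested gene's brightest probe set with the SE (x axis), in liver, kidney and hypothalamus (n = 3 each). No difference was called. Genes without a point were too dim to be tested in that tissue.

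Of 51 further genes of fatty acid supply, regulation and export, chosen by role, 43 had a probe set with a single symbol. In liver against hypothalamus 30 of 40 tested were higher and 7 lower, against 31.6% and 50.3% of all tested probe sets. In kidney against hypothalamus 29 of 38 were higher and 6 lower, against 32.4% and 46.3%. In liver against kidney 13 of 39 were higher and 18 lower, against 23.2% and 32.6%. There, unlike in the list, more genes were lower than higher in liver. In testis against ovary 5 of 29 were higher and 19 lower, against 24.9% and 45.7%. Between the sexes, 0 of 37 tested genes were called in liver, 0 of 36 in kidney and 0 of 26 in hypothalamus. The shares of all tested probe sets were 0.0507%, 0.232% and 0.0509%. Ppara, the receptor that drives transcription of many oxidation genes in liver, had 1172 in male and 1047 in female liver, against 634 in male and 664 in female kidney (log2 difference 0.75 ± 0.26 SE, adjusted p = 0.0268), and at most 49.2 as a group mean elsewhere. Its coactivator Ppargc1a was lower in liver than in hypothalamus, at 173 against 502 (log2 difference -1.32 ± 0.11 SE, adjusted p = 6.9e-08).

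Genes that supply the substrates were divided between tissues. Slc27a2, a very long-chain acyl-CoA synthetase and transporter of liver and kidney, averaged 12529 in kidney against 229 in hypothalamus (log2 difference 5.50 ± 0.09 SE, adjusted p = 5.76e-15). Slc22a5, the carnitine importer, averaged 533 in liver against 4261 in kidney (log2 difference -2.93 ± 0.16 SE, adjusted p = 4.32e-09). Slc16a7, a monocarboxylate carrier that can move ketone bodies, averaged 4512 in testis against 21.5 in ovary (log2 difference 5.99 ± 0.26 SE, adjusted p = 1.07e-07). Slc16a1, a second such carrier, was lower in testis, at 367 against 956 (log2 difference -1.27 ± 0.18 SE, adjusted p = 0.000145).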

How the data were processed

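RNA of 24 samples was measured on 48 arrays. The authors deposited 1 linear intensity for each probe set on each array; the software behind them is not given in the sources used here. Per the labels the groups are those of the array titles. The trimmed mean (2% off each end) of the deposited arrays was 500.11 to 500.23, and array medians were 163.3 to 276; the number of arrays limits the precision. The 2 arrays of a sample correlated at 0.9656 to 0.9899, and 0 pairs of arrays were identical. Control probe sets (64) were left out. Of 22626 probe sets, 20380 had 1 symbol in the platform annotation, 691 several and 1555 none, and 20351 were matched to the gene table of GRCm38.p6, used for symbols and chromosomes.

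Each array was brought to the same trimmed mean, log2 was taken after adding 48.1, the 20th percentile, and the arrays of a sample were averaged. Probe sets above the 40th percentile in 3 samples of a comparison were fitted with limma 3.58.1 in R 4.3.3 (lmFit, eBayes), with Benjamini-Hochberg adjustment over all tested probe sets and a threshold of 0.05. Fits of 2 groups served the sexes of a tissue and the gonads. Tissues were compared in fits of 4 groups, with sexes weighted equally, and the sex difference between tissues in a fit of 6 groups. The fit was tested on simulated data. Values in every sample are given for isozyme families and, per comparison, for up to 6 genes in each direction with the largest differences among called genes whose groups did not overlap, and the rest are given by role or by mean. The members, the role lists, the marker lists and the motifs were chosen with earlier results of these data known. Samples of the same number deviated together between the sexes of kidney (correlations 0.591, 0.426 and 0.627) and hypothalamus (0.392, 0.101 and 0.327). Across numbers these reached at most -0.118 and 0.091. Liver and kidney samples of 1 sex also deviated together by number. Between the sexes of liver the correlations were 0.535, 0.139 and 0.482, with up to 0.287 across numbers. For testis and ovary they were weak (0.0417, 0.146 and 0.0423), with at most 0.0329 across numbers. Promoter windows and figures were made with Python 3.11.15 and matplotlib 3.10.9. Alternatives covered the pseudocount, the scaling, the filter, the arrays used, the variance prior, the samples in the fit, the replicate number as a block and each sample left out. Leaving out both liver samples numbered 1 was added after the data were seen.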

Additional observations from a re-analysis of the deposited data

How the results depend on the processing

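The count of member probe sets called kept within 1.5 times its reported value in each of the 12 comparisons under every alternative run, with 1 exception. The exception to the total was the replicate number as a block. With it, 2 member probe sets were called lower in male than in female kidney, both of Acaa2, against 0 without it. Over all probe sets the count was 144 against 32, and 11 against 7 in liver. The block moved no other count of member calls by that much: it gave 33 against 32 in liver minus kidney and 32 against 29 in ovary minus the female tissues, and the same count as the fit without it in the other 9. Testis and ovary samples of the same number deviated together only weakly, so their block result says nothing about strength.

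With single samples left out, the count was 36 to 43 for testis minus ovary, 28 to 32 for liver minus kidney, 51 to 53 for liver minus hypothalamus, 53 for kidney minus hypothalamus, 46 to 49 for testis minus the male tissues, 22 to 30 for ovary minus the female tissues and 0 for the sexes and their interactions. Without both liver samples numbered 1, an alternative chosen after seeing the data, it was 32 for liver minus kidney and 52 for liver minus hypothalamus. No call of a gene selected by the naming rule reversed. Of the other genes whose call changed with quantile normalization in liver minus kidney, 3 changed sign: Acat1 lost its call (-0.04), and Hadh and Etfb, not called before, were called lower (-0.32 and -0.22). Signs changed in other comparisons too. Crat, not called in liver minus hypothalamus (-0.04), was called higher under quantile normalization and median centring (0.33 and 0.35). Echs1 in ovary minus the female tissues was called higher under the first (0.24) and lower under the second (-0.24). Calls were lost for Oxct1 and Acsl5 (testis minus ovary), Ech1 and Etfa (liver minus kidney) and Cpt1a and Oxct1 (ovary minus the female tissues), in 38 of 1649 results for single named genes and alternatives, and the cause was not tested. Median centring also ended the testis minus ovary calls of Ech1 and Acads (adjusted p = 0.205 and 0.0772). That of Acox3 was lost under quantile normalization and median centring (-0.06 and -0.05). In ovary minus the female tissues, quantile normalization ended the calls of Acadm, Acadvl, Etfa and Etfb. Median centring ended those of the brightest Hadha and Hadh probe sets. Other member probe sets gained a call there. For dim genes, signal over background limits what the arrays can show.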

Other observations

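Fatty acid binding proteins, which carry fatty acids within cells, differed by tissue. Fabp1, the liver form, averaged 19073 in liver against 207 in kidney, with a log2 difference of 6.45 ± 0.26 (SE; adjusted p = 1.6e-10). Fabp3, the heart form, averaged 61.2 in liver against 2137 in kidney (log2 difference -4.32 ± 0.09 SE, adjusted p = 2.66e-13), and 4065 in testis against 1105 in ovary (log2 difference 1.86 ± 0.18 SE, adjusted p = 1.47e-05). Slc27a5, the bile acid and very long-chain acyl-CoA synthetase of liver, averaged 9359 in liver against 141 in kidney (log2 difference 5.67 ± 0.14 SE, adjusted p = 1.02e-12).

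Several of these genes had sizeable differences between male and female kidney that were not called. Cyp4a14, a fatty acid omega-hydroxylase, averaged 2641 in male against 7289.8 in female kidney (log2 difference -2.12 ± 0.71 SE, adjusted p = 0.764). The fatty acid translocase Cd36 averaged 2184 in male against 914 in female kidney (log2 difference 1.13 ± 0.32 SE, adjusted p = 0.605), and the peroxisomal trans-2-enoyl-CoA reductase Pecr 5499 against 3399 (log2 difference 0.67 ± 0.18 SE, adjusted p = 0.546). They were chosen after their values were seen, from 5 of 36 tested genes with an unadjusted p under 0.05, against 4.86% of all tested probe sets.

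Short motifs common to many starts were also common here. GGGCGG was found in 24 of the 33 promoter windows (35.7% of all windows) and CCAAT in 15 (37.4%), searched on both strands. Median GC content was 59.7% over the windows of the list and 52.7% over all windows.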
